A study of Mus musculus with 20 samples.

Results

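The genes described here are the chemokines that draw neutrophils into skin and the receptors through which neutrophils answer them: Cxcl1, Cxcl2, Cxcl3 and Cxcl5, the growth factor gene Csf3, and the receptor genes Cxcr2 and Csf3r. All probe-sets of the array that carry one of these 7 symbols alone were taken, which gave 9 of the 45101 probe-sets on the array and 7 of the 18194 genes with a symbol. Cxcl1 has 3 of these probe-sets and every other gene has 1. Full-thickness skin of 20 female C57BL/6 mice was measured, 1 Affymetrix mouse array per mouse, in 4 groups of 5. The mice were bought at 6 weeks of age and housed for 1 week before the study. Naïve mice gave normal skin. The other 3 groups had all received IL-23, a cytokine that sustains IL-17-producing T cells, by intradermal injection in the back, 3 µg daily on days 1 to 4. These mice then received saline, IMO-3100 or IMO-8400 under the skin at a distant site on days 4, 5 and 6, and the injected skin was taken on day 7. IMO-3100 is an antagonist of Toll-like receptors 7 and 9 and IMO-8400 of Toll-like receptors 7, 8 and 9, both at 15 mg/kg. No group is described as injected in the back without IL-23. In comparisons with naïve skin, IL-23 and the injections themselves therefore cannot be told apart, also where a gene is called higher with IL-23. IL-23 injection is a short model of psoriasis-like inflammation, and the study's question here was how far each antagonist lowered what was raised in the injected skin.

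CXCL1, CXCL2, CXCL3 and CXCL5 are secreted chemokines that bind CXCR2 on neutrophils and guide them out of the blood. G-CSF, the product of Csf3, acts on the bone marrow through its receptor CSF3R and releases neutrophils into the circulation. In skin, keratinocytes, fibroblasts and myeloid cells make the ligands when IL-17, IL-1 or TNF reaches them, largely through NF-κB, and collections of neutrophils in the epidermis are a hallmark of psoriasis.

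Levels are log2 values from GCRMA, so that a difference of 1 is a doubling. No array goes below 2.02, and a group in which all 5 mice lay below 3 is called near background. A fold change (FCH) against such a group was computed with its values set to 3 and is written as at least that large. A gene is called higher or lower where limma gave an FDR under 0.05 over the 30960 tested probe-sets and a FCH over 2. All 9 member probe-sets were tested. The tissue was skin by its markers, with 7 keratinocyte genes averaging 13.9 to 14.4 and 7 fibroblast genes 13.4 to 14.2 in each mouse. The naïve mice stood apart from each other. The mean of 14 hair shaft and growing follicle genes was 13.2, 11.8, 9.55, 4.55 and 3.48 in naïve mice 1 to 5, against 2.71 to 3.13 in all other mice but IMO-8400 mouse 5, at 6.16. The mean of the 7 members ran the other way in the naïve mice, at 2.42, 2.82, 3.15, 3.46 and 3.56, and the part of hair growth in it was not tested. Comparisons with naïve mice are therefore also given against naïve mice 4 and 5 alone where this moved them.

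All 7 genes were higher in IL-23-injected skin given saline than in naïve skin, with no overlap between the groups, where 8.94% of 13909 tested genes were called higher and 13.6% did not overlap in that direction. The largest fitted difference was that of Cxcl2, although Cxcl5, at the lowest value in naïve skin, cannot be ranked against it. The Cxcl2 log2 values were 2.02, 2.89, 2.89, 3.74 and 3.26 in the naïve mice and 10.69, 11.95, 12.18, 10.29 and 9.94 in the saline mice. The lowest saline mouse lay more than 6 log2 units above the highest naïve mouse. The difference was 8.05 ± 0.47 (log2, SE, n = 5 per group; 265-fold, adjusted p = 1.36e-09). With values under 4 set to 4 it was 7.01.

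Cxcl1, the mouse chemokine also known as KC, was read by 3 probe-sets, and all 3 rose. At the brightest (1457644_s_at), the naïve mice had 2.54, 4.22, 3.28, 5.49 and 3.46 and the saline mice 9.90, 10.88, 11.72, 9.88 and 10.46. The difference was 6.77 ± 0.56 (log2, SE; 109-fold, adjusted p = 7.53e-08). The differences at 1441855_x_at and 1419209_at were 6.92 ± 0.48 and 5.58 ± 0.51 on the same scale. With naïve mice 4 and 5 alone, the difference at 1457644_s_at was 6.09 (adjusted p = 1.50e-05).

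Cxcl3, a close relative of Cxcl2, was near background in naïve skin, with every naïve mouse at 2.02 or 2.03. The saline mice had 6.14, 7.94, 7.99, 5.35 and 7.04. Cxcl3 was thus at least 14.8-fold higher with IL-23 (adjusted p = 4.24e-05).

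Cxcl1, Cxcl2 and Cxcl3 stand near each other on mouse chromosome 5, in the same orientation, and rose together, so the 100 bases before their start sites are shown (RefSeq, build GRCm38.p6). The capitals mark the longest run of bases that the 3 stretches share, 11 bases long, within which the κB consensus, the binding sequence of NF-κB, is met at 2 overlapping positions when both strands are read.
Cxcl1, chr5:90891145-90891244 (+): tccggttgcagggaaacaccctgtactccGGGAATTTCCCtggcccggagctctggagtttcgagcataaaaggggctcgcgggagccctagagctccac
Cxcl2, chr5:90903799-90903898 (+): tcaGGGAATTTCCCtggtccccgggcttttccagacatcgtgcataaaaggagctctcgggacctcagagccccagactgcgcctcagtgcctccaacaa
Cxcl3, chr5:90786001-90786100 (+): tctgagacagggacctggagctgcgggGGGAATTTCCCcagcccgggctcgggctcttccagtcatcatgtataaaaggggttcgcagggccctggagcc

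The shared run began 71 bases before the start site of Cxcl1, 97 before that of Cxcl2 and 73 before that of Cxcl3. It was found in 14 of 32851 mouse promoters of 300 bases, or 0.0426%, and these 3 are among the 14 by the choice of the run. The κB consensus, whose free positions let it be met more often than a fixed run, was found in 8.46% of all the promoters. Aligned on the shared run without gaps, 41.9% of 74 bases were identical between Cxcl1 and Cxcl2. The share was 40.8% of 98 bases between Cxcl1 and Cxcl3 and 32.9% of 76 between Cxcl2 and Cxcl3. These shares count the run itself, which is identical by choice, and no share for unrelated promoters was computed. RefSeq promoters were matched for 5 of the 7 genes, these 3 and the 2 receptors. The Csf3r promoter held a different match to the κB consensus, 129 bases before its start, and the Cxcr2 promoter held none. Letters of the motifs TGANTCA (AP-1), TTGCNNAA (C/EBP) and TTCNNNGAA (STAT), on either strand, were in none of the 5 promoters, and were found in 7.81%, 10.8% and 8.3% of all promoters. Such matches describe the sequence and are no evidence of binding.

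Cxcl5, a chemokine of epithelial cells, was at the lowest value of 2.02 in all 5 naïve mice. The saline mice had 8.25, 10.33, 10.78, 8.46 and 7.49. It was at least 66.8-fold higher with IL-23 (adjusted p = 1.96e-08).

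Csf3 was also at 2.02 in every naïve mouse, but the saline mice were spread widely, at 2.95, 7.14, 9.00, 5.49 and 3.18. The saline mice were all above the naïve mice, 1 of them below 3. Csf3 was at least 5.87-fold higher (adjusted p = 0.00121). The fitted difference of 3.54 ± 0.77 (log2, SE) was 2.67 without saline mouse 3, 4.19 without saline mouse 1 and 4.13 without saline mouse 5.

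The receptor genes, which neutrophils themselves transcribe, rose as well. Cxcr2 was at 4.17, 3.08, 4.55, 4.88 and 5.49 in naïve mice and at 8.40, 9.39, 9.50, 8.72 and 8.85 in saline mice. The difference was 4.54 ± 0.36 (log2, SE; 23.2-fold, adjusted p = 4.71e-08), and 3.79 with naïve mice 4 and 5 alone (adjusted p = 2.10e-06). Csf3r was the most scattered member in naïve skin, at 2.10, 3.49, 5.28, 4.08 and 6.67, against 9.56, 10.24, 10.28, 9.53 and 9.32 in saline mice. The difference was 5.46 ± 0.60 (44.0-fold, adjusted p = 1.83e-06), 4.41 with naïve mice 4 and 5 alone (adjusted p = 4.26e-05) and 6.05 without naïve mouse 5. In whole skin, more neutrophils, more receptor RNA per cell and receptor RNA from other cells cannot be told apart.

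Within the saline group the members moved together by mouse. Saline mouse 3 had the highest value for 7 of 7 genes, and saline mouse 2 was also above the group mean for all 7. Mice 1, 4 and 5 were below the mean for 7, 7 and 6 genes. The means of the 7 members were 7.98, 9.70, 10.21, 8.25 and 8.04 in saline mice 1 to 5.

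**Figure D1:**
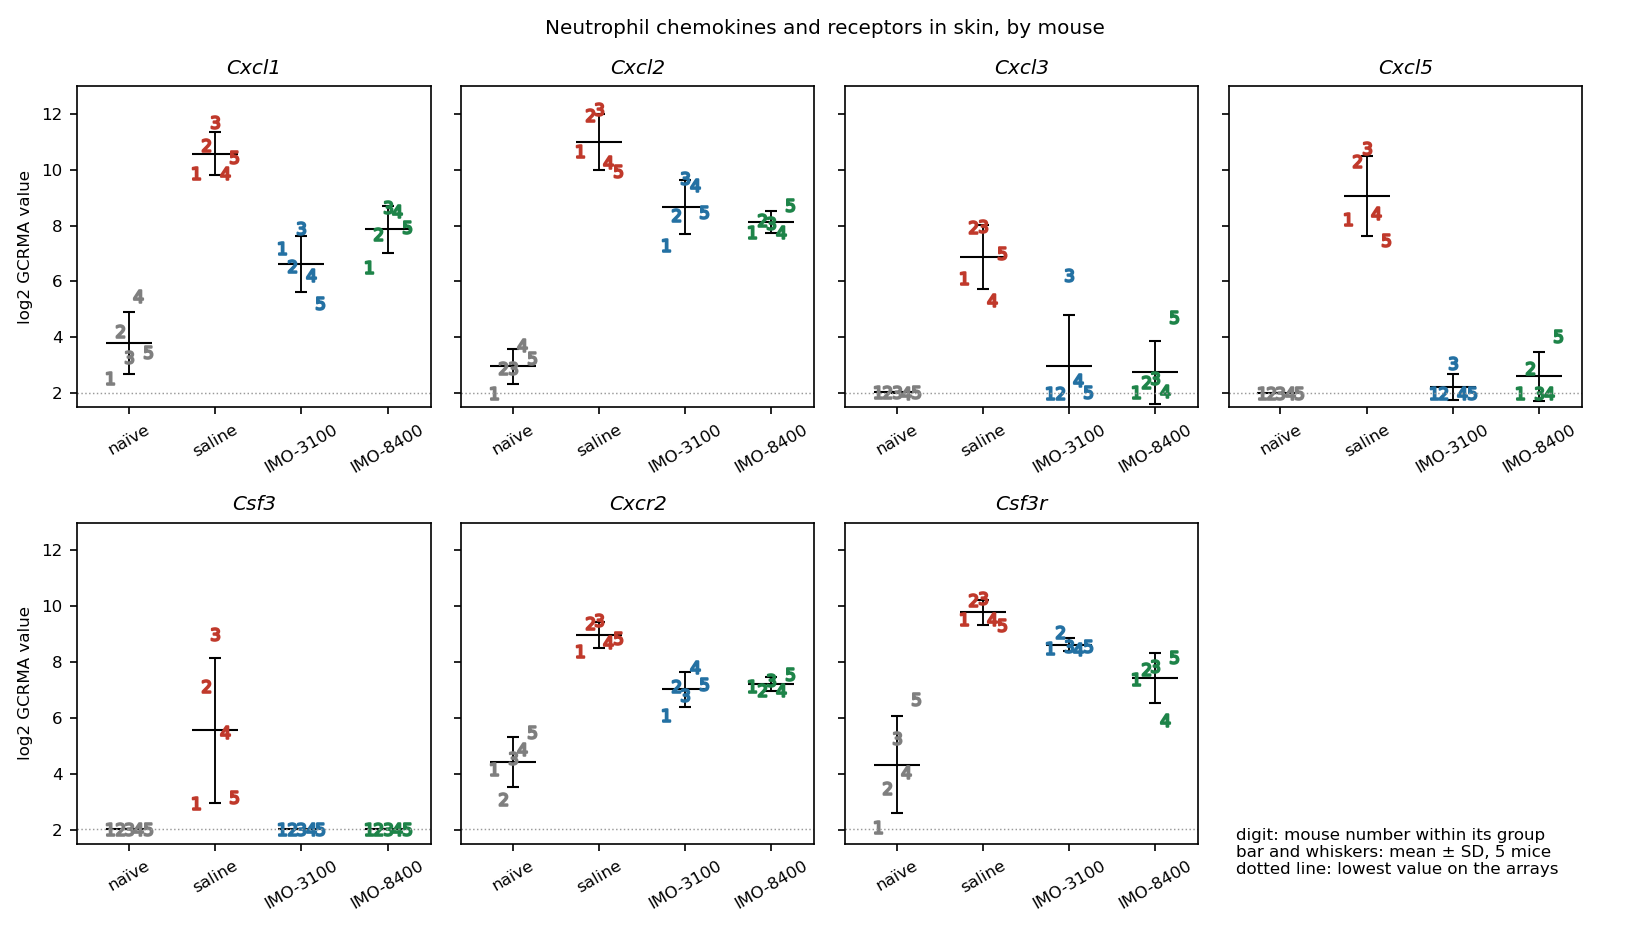
Log2 GCRMA value (vertical axis) of the 7 genes in each mouse of the naïve, saline, IMO-3100 and IMO-8400 groups, with Cxcl1 at its brightest probe-set; digits are mouse numbers within a group, and bars with whiskers are the mean ± SD of 5 mice. Csf3 left the lowest value in saline mice only, whereas Cxcl1, Cxcl2, Cxcr2 and Csf3r of the antagonist mice lay between the naïve and the saline means.

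Against saline, IMO-3100 lowered 6 of the 7 genes and IMO-8400 lowered 7 of 7, where 4.62% and 4.16% of tested genes were called lower. No member was higher than in saline mice with either antagonist. The antagonist mice lay below every saline mouse for 6 genes with IMO-3100 and 7 with IMO-8400, as 14.7% and 15.4% of genes did. Both comparisons use the same saline mice.

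Csf3 was at the lowest value of 2.02 in all 10 antagonist mice, as in naïve skin. It was at least 5.87-fold lower than with saline for either agent (adjusted p = 0.00297 for IMO-3100 and 0.00270 for IMO-8400). With values under 4 set to 4, the difference was -1.93 for either (adjusted p = 0.0313 and 0.0302).

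Most antagonist mice were at the lowest value for Cxcl5 too. With IMO-3100, 4 of 5 mice were at 2.02 and mouse 3 at 3.07. With IMO-8400, 3 mice were at 2.02, mouse 2 at 2.91 and mouse 5 at 4.04. The fitted differences from saline were -6.83 ± 0.52 and -6.46 ± 0.52 (log2, SE; adjusted p = 1.75e-07 and 3.63e-07). Their size rests on the lowest value, and with values under 4 set to 4 they were -5.06 and -5.05.

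Cxcl3 values were 2.02, 2.02, 6.23, 2.48 and 2.03 with IMO-3100 and 2.03, 2.41, 2.54, 2.06 and 4.74 with IMO-8400. IMO-3100 mouse 3 lay above saline mice 1 and 4, so these groups overlapped, whereas all IMO-8400 mice lay below the saline mice. The differences were -3.93 ± 0.72 and -4.13 ± 0.72 (log2, SE; adjusted p = 0.00101 and 0.000592). Without IMO-3100 mouse 3 the first was -4.75. By the exact permutation test the IMO-3100 difference did not pass (adjusted p = 0.0751).

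Cxcl1 remained measurable in every antagonist mouse. At 1457644_s_at the IMO-3100 mice had 7.19, 6.57, 7.91, 6.25 and 5.21 and the IMO-8400 mice 6.52, 7.69, 8.66, 8.51 and 7.95. All 10 lay below the lowest saline mouse at 9.88. The differences were -3.94 ± 0.56 with IMO-3100 and -2.70 ± 0.56 with IMO-8400 (log2, SE; 15.4-fold and 6.50-fold lower, adjusted p = 0.000153 and 0.00206). The other Cxcl1 probe-sets gave -4.22 and -3.76 with IMO-3100 and -2.91 and -2.82 with IMO-8400.

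Cxcl2 stayed high. Its values were 7.30, 8.37, 9.71, 9.45 and 8.47 with IMO-3100 and 7.76, 8.21, 8.09, 7.78 and 8.73 with IMO-8400, below all saline mice and above all naïve mice. It fell by 2.35 ± 0.47 and by 2.90 ± 0.47 (log2, SE; 5.10-fold and 7.44-fold, adjusted p = 0.00177 and 0.000332).

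Cxcr2 was at 6.11, 7.16, 6.83, 7.84 and 7.21 with IMO-3100 and at 7.16, 7.01, 7.35, 6.99 and 7.56 with IMO-8400. It fell by 1.94 ± 0.36 and 1.76 ± 0.36 (log2, SE; 3.84-fold and 3.38-fold, adjusted p = 0.00111 and 0.00193). No antagonist mouse reached the saline mice or came down to the naïve mice.

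Csf3r was at 8.49, 9.06, 8.57, 8.47 and 8.57 with IMO-3100 and at 7.39, 7.76, 7.88, 5.93 and 8.20 with IMO-8400. It fell by 2.35 ± 0.60 with IMO-8400 (log2, SE; adjusted p = 0.00735). With IMO-3100 the difference was -1.16 ± 0.60 (95% interval -2.41 to 0.10, adjusted p = 0.163), although every IMO-3100 mouse lay below every saline mouse. The spread in the model is pooled over the 4 groups, and the SD of Csf3r was 1.74 in naïve mice against 0.25 with IMO-3100 and 0.44 with saline. In a model of the IMO-3100 and saline groups alone the adjusted p was 0.00253, and by the exact permutation test it was 0.0395.

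The antagonists were given at the same dose and days, and no member was called different between them by limma (7 genes compared, p adjusted over all tested probe-sets). At an unadjusted p under 0.05 limma found 1 of the 7, Cxcl1. The share of all genes at that threshold was not computed, here or for the gene lists. Over all tested genes, 0.381% were higher and 0.137% lower with IMO-8400 than with IMO-3100. The largest differences were those of Cxcl1 and Csf3r, in opposite directions. Cxcl1 was 1.24 higher with IMO-8400 at 1457644_s_at (log2; 95% interval 0.06 to 2.42, unadjusted p = 0.0401, adjusted p = 0.209). At 1441855_x_at it was 1.30 higher (0.29 to 2.32, unadjusted p = 0.0144, adjusted p = 0.126), and at 1419209_at 0.94 higher (-0.14 to 2.02, adjusted p = 0.304). The groups overlapped at each. Csf3r was 1.20 lower with IMO-8400 (log2 difference -1.20, 95% interval -2.45 to 0.06, unadjusted p = 0.0599, adjusted p = 0.253). All IMO-8400 mice lay below all IMO-3100 mice for Csf3r, as they did for 4.6% of genes. The intervals of Cxcl2 (-1.53 to 0.44), Cxcl3 (-1.72 to 1.32), Cxcl5 (-0.71 to 1.45) and Cxcr2 (-0.58 to 0.94) spanned 0, which leaves differences of these sizes possible. Csf3 could not be compared, since all 10 mice were at the lowest value.

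**Figure D2:**
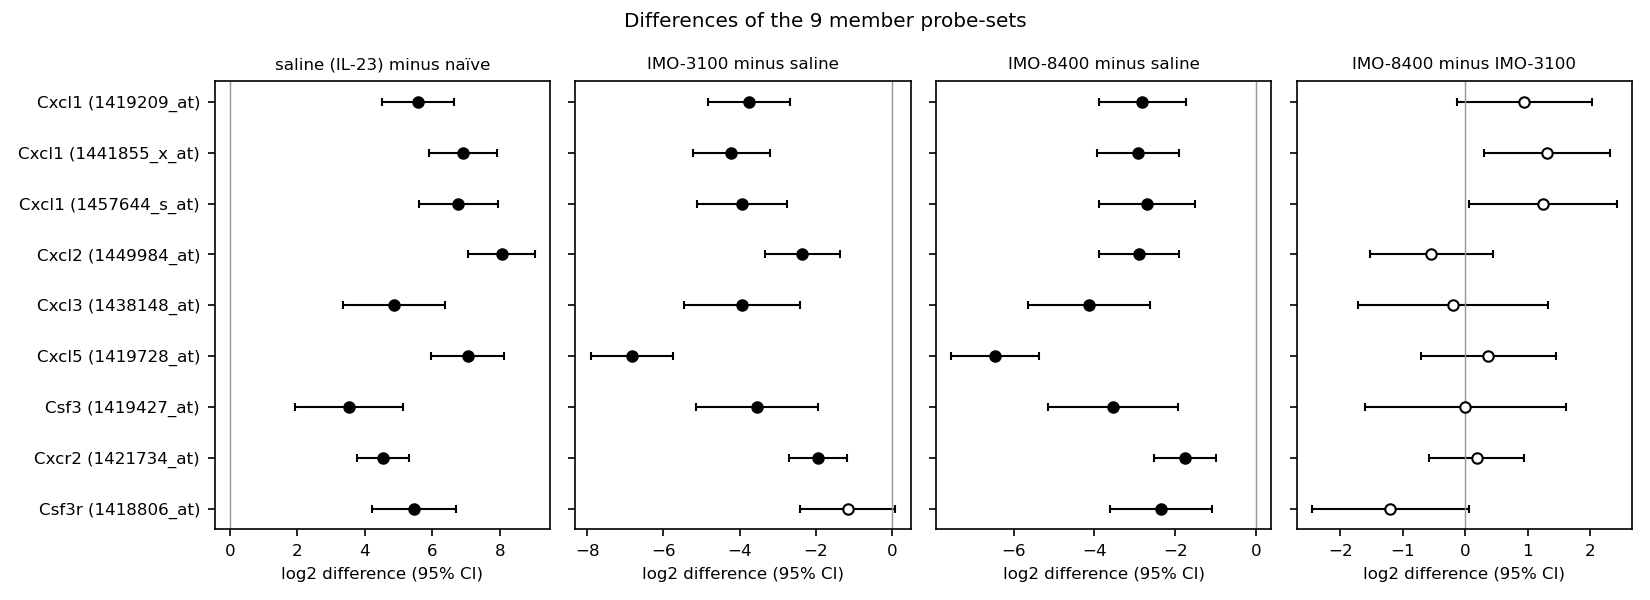
Log2 difference (horizontal axis, with 95% interval of limma) at the 9 member probe-sets in 4 comparisons, each panel on its own scale; filled points were called and open points were not. Csf3r with IMO-3100 is the open point among the differences from saline, and all 9 points are open between the antagonists.

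The levels left under the antagonists were set beside naïve skin. With each antagonist 4 of 7 genes were still higher than in naïve skin, namely Cxcl1, Cxcl2, Cxcr2 and Csf3r, where 5.7% of genes were with IMO-3100 and 4.71% with IMO-8400. Cxcl2 was 5.70 ± 0.47 above naïve skin with IMO-3100 and 5.16 ± 0.47 with IMO-8400 (log2, SE; adjusted p = 2.65e-07 and 1.25e-06). Csf3r was 4.30 ± 0.60 and 3.11 ± 0.60 above, and 3.25 and 2.05 with naïve mice 4 and 5 alone. Without naïve mouse 5 these became 4.89 and 3.69. For Csf3r, IMO-8400 mouse 4, at 5.93, lay below naïve mouse 5, at 6.67, so the IMO-8400 and naïve groups overlapped. Cxcl1 at 1457644_s_at was 2.83 ± 0.56 and 4.07 ± 0.56 above, and 2.15 and 3.39 with naïve mice 4 and 5 alone. There IMO-3100 mouse 5, at 5.21, lay below naïve mouse 4, at 5.49. The IMO-3100 and naïve groups overlapped at 1419209_at too. At 1419209_at the Cxcl1 difference with IMO-3100, 1.82 (adjusted p = 0.0137), did not pass against naïve mice 4 and 5 alone, at 1.35 (adjusted p = 0.179). Cxcr2 was 2.59 ± 0.36 and 2.78 ± 0.36 above, and 1.84 and 2.03 with naïve mice 4 and 5 alone. For Cxcl3 the differences of 0.93 and 0.73 did not pass (adjusted p = 0.355 and 0.511), nor did those of Cxcl5, at 0.21 and 0.58 (adjusted p = 0.800 and 0.457). By the exact permutation test 3 of 7 genes were called with IMO-3100, Cxcl1 at 1457644_s_at being lost (adjusted p = 0.0742). With IMO-8400 that test could call no gene, since its smallest p, 0.00794, became 0.0678 after adjustment.

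The share of the log2 rise that was undone, from 0% at the saline mean to 100% at the naïve mean, differed between the members. It was 100% for Csf3 in all 10 antagonist mice. For Cxcl5 it was 97.0% ± 6.7 with IMO-3100 and 91.7% ± 12.7 with IMO-8400 (mean ± SD, n = 5 each). For Cxcl3 it was 80.9% ± 37.9 and 85.0% ± 23.2. Since these 3 genes reached the lowest value in naïve skin, their shares cover only the measurable part of the rise. For Cxcl1 at 1457644_s_at it was 58.2% ± 14.9 and 39.9% ± 12.6, and 42.1% to 67.3% as a mean at the other probe-sets. For Cxcr2 it was 42.8% ± 13.9 and 38.7% ± 5.3. For Cxcl2 it was 29.2% ± 12.0 and 36.0% ± 4.9. For Csf3r it was 21.2% ± 4.5 and 43.1% ± 16.2. The genes are given in the order of their mean with IMO-3100, in which the mean ± SD ranges of neighbours overlapped. With IMO-8400 the means of Cxcl1, Cxcr2, Cxcl2 and Csf3r lay between 36.0% and 43.1%, in another order and with overlapping ranges. All shares use the mean of the 5 naïve mice, and shares from naïve mice 4 and 5 alone were not computed. Against naïve mice 4 and 5 alone the rises of Csf3r, Cxcr2 and Cxcl1 were 4.41, 3.79 and 6.09, against 5.46, 4.54 and 6.77. The sizes and order of the shares therefore depend on the naïve mice taken.

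**Figure D3:**
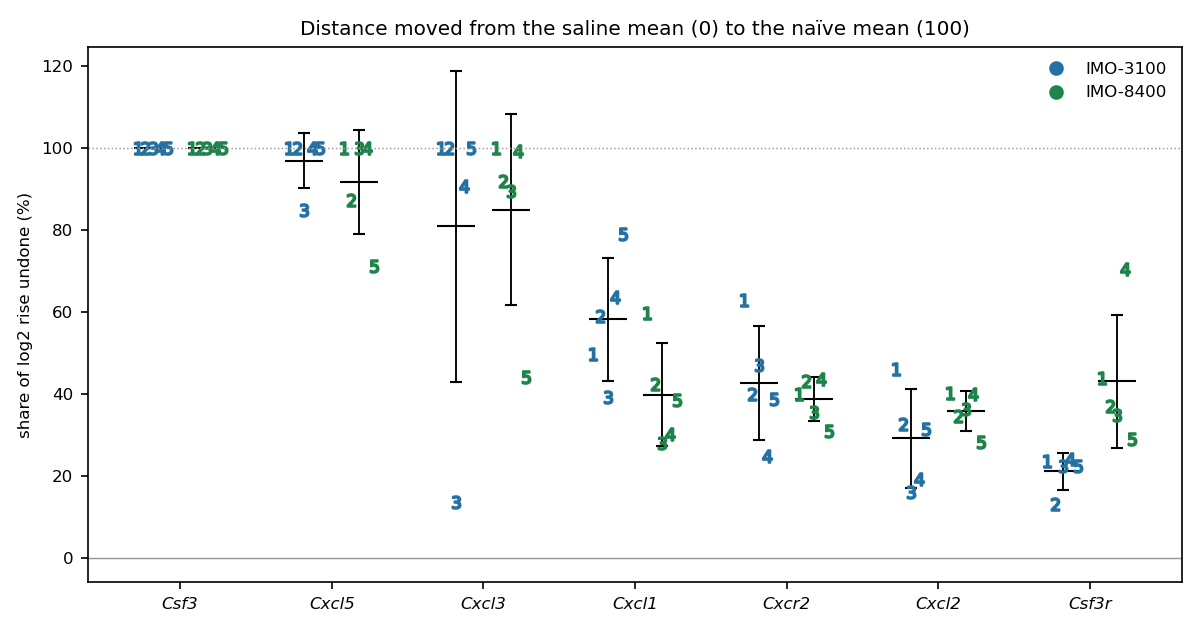
Share of the log2 rise undone (vertical axis, percent) for each gene and antagonist mouse, where 0 is the saline mean and 100 the naïve mean; digits are mouse numbers, bars with whiskers the mean ± SD of 5 mice. Csf3 is at 100% in all 10 mice, Cxcl3 of IMO-3100 mouse 3 at 13.6%, and Csf3r of the IMO-3100 mice between 13.3% and 24.2%.

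In the antagonist groups 1 mouse each stood out. IMO-3100 mouse 3 had the highest value for 4 of the 6 genes that varied, and IMO-8400 mouse 5 for 5 of 6. The latter is the mouse with the raised hair genes.

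Markers of mature neutrophils were measured beside the members. Of 18 tested markers 14 were higher with IL-23, where 8.94% of genes were, and 1 was lower, Padi4, where 8.51% were. Clec4e, a myeloid C-type lectin receptor, was 8.66 ± 0.83 higher (log2, SE; a size that depends on the lowest value, since its naïve mean was 2.53), Stfa2l1 7.41 ± 0.61, Clec4d 7.04 ± 0.69 and Lcn2, a neutrophil granule protein that keratinocytes also make, 5.74 ± 0.24. Against saline, 8 of 18 were lower with IMO-3100 and 9 of 18 with IMO-8400, where 4.62% and 4.16% of genes were. None was higher, where 2.65% and 4.57% of genes were. Cd177, a neutrophil surface protein, and the activating receptor gene Trem1 were near background in all antagonist mice, at least 6.75-fold and 6.59-fold lower with either agent. The neutrophil collagenase gene Mmp8 was near background with IMO-3100, at least 13.1-fold lower, and had a mean of 2.50 with IMO-8400, close to the lowest value. Other markers did not pass: S100a9, a calprotectin subunit abundant in neutrophils, differed from saline by -1.12 ± 0.43 (adjusted p = 0.0631) and -0.58 ± 0.43 (adjusted p = 0.338), and Clec4d by -0.27 and -0.28. Fpr2, a formyl peptide receptor gene, differed by 0.02 and -1.60 (adjusted p = 1.00 and 0.155). Il1r2 and Asprv1 lay above saline, by 0.83 and 0.35 with IMO-3100 and 0.66 and 0.37 with IMO-8400 (log2, adjusted p = 0.0120 to 0.0430), short of the FCH of 2. The median log2 difference of the 18 markers from saline was -1.45 with IMO-3100 and -1.43 with IMO-8400, against -0.02 and 0.00 over all genes.

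The mean of 19 neutrophil markers lay at 6.29 to 6.98 in naïve mice, 9.71 to 10.70 with saline, 8.19 to 9.05 with IMO-3100 and 8.46 to 9.02 with IMO-8400. The antagonist mice thus lay between the naïve and the saline mice in this mean, as they did for Cxcr2 and Cxcl2. They also did so in the mean of the 24 cytokines and signal molecules described below. Asprv1, Stfa3 and Il1r2 already averaged 13.6, 12.4 and 11.8 in naïve skin. The study describes S100a8, S100a9 and Lcn2 as genes that IL-17 regulates in keratinocytes. Cd177, Trem1 and Mmp8 had means of 2.02 to 2.50 with the antagonists, against 2.02 in naïve skin. With each antagonist 9 of 18 tested markers were higher than in naïve skin, where 5.7% and 4.71% of genes were. Padi4 was lower, as 4.82% and 2.55% of genes were. Ltf and Ngp, granule genes of less mature neutrophils, were near background in every group. So were the precursor markers Mpo, Elane and Ms4a3. Of the precursor-associated genes, Ctsg was 2.87 higher with IL-23 (log2) and Gfi1 at least 2.42-fold higher, Ctsg being transcribed by mast cells too. Prtn3, a granule protease gene, went the other way, from a mean of 5.07 in naïve skin to 2.23 with saline (log2 difference -2.84, adjusted p = 2.01e-05). Ly6g, Fpr1 and Cxcr1 were not analysed here. Markers of 9 monocyte and macrophage genes averaged 13.2 to 13.5 with saline and 13.0 to 13.7 with the antagonists. At the brightest probe-set of each gene none passed limma's test against saline (0 and 1 of 9 at an unadjusted p under 0.05). Of all genes, 4.62% and 4.16% were called lower and 2.65% and 4.57% higher. Ccr2, the chemokine receptor gene of inflammatory monocytes, was called lower at 3 of its 4 probe-sets with each antagonist, with log2 differences of -1.30 to -3.79 for IMO-3100 and -1.45 to -3.79 for IMO-8400, against -0.71 and -0.88 at the brightest. Of 6 T cell markers, 5 were higher with IL-23, and 3 and 2 were lower with IMO-3100 and IMO-8400, where 8.94%, 4.62% and 4.16% of genes were. Cd4 lay the other way, at means of 11.2 with IMO-3100 and 11.1 with IMO-8400 against 10.0 with saline, and was not called. How much of the change of the members came with fewer cells was not tested.

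**Figure D4:**
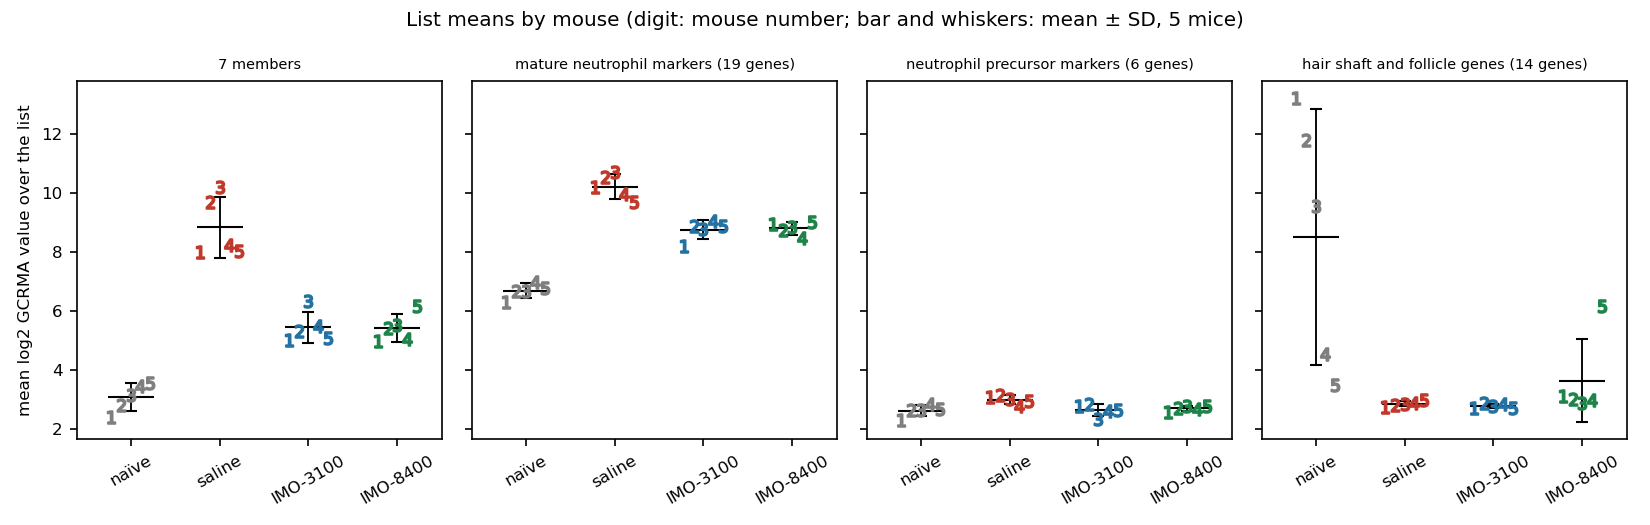
Mean log2 GCRMA value (vertical axis) per mouse over the 7 members, 19 mature neutrophil markers, 6 precursor markers and 14 hair shaft and follicle genes in the 4 groups; digits are mouse numbers, bars with whiskers the mean ± SD of 5 mice. The neutrophil marker mean of antagonist mice lay between 8.19 and 9.05, between the naïve and saline mice. The hair gene mean was spread from 3.48 to 13.2 within the naïve group.

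The cytokines and signal molecules that induce these ligands were also measured. Of 24 tested, 14 were higher with IL-23 and none lower, where 8.94% and 8.51% of genes were. With each antagonist 4 were lower, where 4.62% and 4.16% of genes were. Il6 was at least 50.3-fold higher with IL-23 and near background again with both agents, at least 50.3-fold below saline (adjusted p = 1.61e-09 and 2.14e-09). Il17a, the central T cell cytokine of the model, was at least 6.54-fold higher and near background with both. Il1b rose by 5.78 ± 0.34 (log2, SE) and differed from saline by -2.57 ± 0.34 with IMO-3100 and -3.60 ± 0.34 with IMO-8400. The other gene called lower was Nfkb2, an NF-κB subunit, with IMO-3100 (-1.01) and Myd88, the adaptor of Toll-like and IL-1 receptors, with IMO-8400 (-1.04). The IL-36 cytokines, made by keratinocytes, rose with IL-23, Il36a by 4.58 ± 0.49, Il36b by 2.80 ± 0.37 and Il36g by 1.93 ± 0.42. Against saline Il36a differed by -0.16 and -0.14, with 95% intervals of -1.18 to 0.87 and -1.17 to 0.89. Tnf, 1.05 higher with IL-23, differed from saline by -0.37 and -0.40 (adjusted p = 0.225 and 0.183).

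Of 18 signal molecules of CXCR2 and the G-CSF receptor, 9 were higher with IL-23, against the same 8.94%. None was called lower by limma with either antagonist, where 4.62% and 4.16% of genes were. At an unadjusted p under 0.05, 3 and 7 were lower with IMO-3100 and IMO-8400, counts with no all-gene share beside them. The Src-family kinase gene Fgr was 4.86 ± 0.72 higher (log2, SE), the GTPase gene Rac2 2.67 ± 0.47, the PI3 kinase subunit gene Pik3r5 2.61 ± 0.40 and the arrestin gene Arrb2 1.89 ± 0.26. Socs3, a feedback inhibitor of the G-CSF receptor, was 1.81 ± 0.24 higher with IL-23. With IMO-8400 it was 1.99-fold below saline (adjusted p = 0.00523), just short of the FCH of 2. The median log2 difference of the list from saline was -0.22 and -0.35.

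Of 11 genes for adhesion and passage out of blood, 10 were higher with IL-23, and 5 were lower with IMO-3100 and 4 with IMO-8400, against 8.94%, 4.62% and 4.16% of all genes. These included the endothelial selectins, which slow neutrophils at the vessel wall. Sele rose by 2.38 ± 0.33 and was then at least 4.59-fold lower with IMO-3100, and lower by a log2 difference of -2.31 with IMO-8400. Selp rose by 2.03 ± 0.32, with differences of -2.10 and -1.65 from saline. Vcam1 and Icam2 passed with IMO-3100 only (-1.18 and -1.08), against -0.95 and -0.90 with IMO-8400, and the integrin gene Itgam with IMO-8400 only (-1.93, against 0.33). None of the 11 was called different between the antagonists by limma, where 0.381% and 0.137% of genes were higher and lower with IMO-8400. Itgam and the integrin gene Itgal were lower with IMO-8400 at an unadjusted p under 0.05.

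Ppbp and Cxcl15, which encode further CXCR2 ligands, were near background in every group. Ackr1 and Ackr2, decoy receptors that bind chemokines, and Pf4, a platelet chemokine, were not called in any comparison with saline or naïve skin. Of 7 genes for other colony stimulating factors and their receptors, 4 were higher with IL-23, namely Csf2, Csf2ra, Csf2rb and Csf2rb2, by 1.04 to 1.88 on the log2 scale, again against 8.94% of genes. By limma none was called lower with an antagonist, where 4.62% and 4.16% of genes were. At an unadjusted p under 0.05, 2 and 1 were lower, again with no all-gene share beside them. Csf2, which encodes GM-CSF, was 1.30 ± 0.51 higher with IL-23 (adjusted p = 0.0453).

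The genes whose centred log2 profile over the 20 mice was most like the mean profile of the 4 CXCR2 ligands were Timp1, Hdc, Il1b, Il18rap, Mcemp1 and Stat4, among 25552 candidate probe-sets. Their root mean square difference from it was 0.93 to 1.08 log2 units. The ligand probe-sets that form this mean differed from it by 0.83 to 1.30, distances that are lowered because each is part of it. Timp1 was 4.55 higher with IL-23 and differed from saline by -3.52 with IMO-3100 and -3.28 with IMO-8400. Most like the mean of Cxcr2 and Csf3r were Mefv, Dppa5a, Il18bp, Ccdc88b, Cst7 and Apoc2, at 0.55 to 0.63 log2 units. Mefv encodes pyrin, which myeloid cells transcribe, and was 4.55 higher with IL-23, with differences of -1.69 and -1.90 from saline.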

How the data were processed

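The authors deposited log2 expression values that GCRMA had made from 20 Affymetrix mouse arrays, 1 per mouse. The version of GCRMA, scan dates and batches are not given in the sources used here. The values were used without further normalization. The platform annotation gave 34958 probe-sets 1 gene symbol, 932 several and 9211 none, and only the first were named.

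Following the study's methods, a probe-set was tested if 3 or more arrays exceeded 2 and its SD exceeded 0.1. The 4 group means were modelled with lmFit and eBayes of limma 3.58.1 in R 4.3.3. Benjamini-Hochberg adjustment ran over the 30960 tested probe-sets. Intervals are 95% intervals of limma. Each gene in a count is represented by its tested probe-set with the highest mean. Mouse numbers only name mice and pair no samples. The script was tested on simulated data.

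The members and gene lists were chosen with earlier results of these data known, so no count over a list is independent evidence. The lists came from general knowledge. Named are every member, the 6 genes most like the ligands and the 6 most like the receptors by root mean square difference, and up to 4 genes per list and comparison with the largest called change; list genes named as not passing were picked with their values in view. The alternatives were other filters, floors, scalings, models and an exact permutation test over 252 divisions of 10 mice (two-sided), leaving out each mouse, and naïve mice 4 and 5 alone, the last chosen after the data were seen. The series' design text speaks of 2 doses of 1 antagonist, whereas the sample labels name IMO-3100 and IMO-8400, which were followed. Saline in the labels is PBS in the study's methods. Promoters are from RefSeq (GRCm38.p6). Plots were drawn with matplotlib.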

Additional observations from a re-analysis of the deposited data

Results flagged for a closer look

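A member probe-set varied by more than 0.1 (log2) in 31 groups of 5 mice. Of these groups, 5 held 1 mouse farther from the others than Dixon's critical value of 0.71 allows. In the IMO-3100 group these were mouse 3 for Cxcl3 (6.23, highest) and Cxcl5 (3.07, highest) and mouse 2 for Csf3r (9.06, highest). In the IMO-8400 group they were mouse 5 for Cxcl3 (4.74, highest) and mouse 1 for Cxcl1 at 1419209_at (5.29, lowest). No member differed between the antagonists by the test of that difference.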

How the results depend on the processing

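Over the alternatives the number of member genes called kept within 1.5 times its value, at 6 or 7 with IL-23, 5 to 7 lower with IMO-3100, 6 or 7 lower with IMO-8400 and 3 or 4 above naïve skin with IMO-3100. For IMO-8400 against naïve skin the exact permutation test gave 0 of 7 rather than 4, since its smallest p, 0.00794, became 0.0678 there and no call was possible; no other alternative changed that count beyond 1.5 times. Between the antagonists 0 members were called under every alternative run, the permutation test being unable to call one there either (smallest adjusted p 0.0822). Csf3 failed the stricter filter, which accounts for the counts of 6 with IL-23 and with IMO-8400. Uncalled differences between the antagonists turned sign for Cxcl3 without IMO-3100 mouse 3 and for Cxcr2 without IMO-3100 mouse 1: leaving out each mouse gave -0.70 to 0.62 for Cxcl3 and -0.045 to 0.39 for Cxcr2. With values under 4 set to 4, the rises of Cxcl2, Cxcl3 and Cxcl5 were 7.01, 2.89 and 5.06 and the falls of Cxcl3 -2.44 and -2.74, all still called. No paired analysis was possible because the labels number the samples of the series without pairing mice. Signal at the lowest value limits Csf3, Cxcl3 and Cxcl5, whose fitted differences depend on it, and 5 mice per group limit the precision of every value.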
